A study of Mus musculus with 24 samples.

Results

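The insulin-like growth factor (IGF) axis was described by 10 genes: the ligands Igf1 and Igf2, the receptors Igf1r and Igf2r, and the binding proteins Igfbp2 to Igfbp7. They were picked by symbol out of 52089 symbols in the expression table, and each was represented by its RefSeq entry with the highest mean level over the 24 libraries. All 10 had an entry, and 8 of them passed the filter on low values. Igf2 and Igfbp2 did not.

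The libraries came from primary mouse brite adipocytes, white fat cells that have switched on heat production as brown fat does. They were used to compare knockdown of the long noncoding RNA Ctcflos (KD) with a nontargeting control (NC). There were 6 libraries for KD and 6 for NC at each of 24 h and 72 h, and the times are the hours between transfection and harvest. Precursors in every group were stromal vascular cells of inguinal white fat of mice labelled 129SvEv, which per the methods of the study were males aged 5 to 6 weeks. Every group was induced and differentiated with rosiglitazone and was transfected early in differentiation with 50 nM of a gapmer. A gapmer is a short antisense strand, here with locked nucleic acid ends, and RNase H cuts the RNA that it pairs with. KD received a gapmer against Ctcflos and NC a gapmer without a target. Insulin, which at high dose can also bind the IGF1 receptor, was in the medium of all groups, so no group shows the axis without it. The study calls its replicates of these data biological. The labels do not say whether they came from separate animals or cultures, so p-values measure the spread between these samples, which may in part be technical.

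IGF1 and IGF2 are small secreted proteins related to insulin. IGF1R is the tyrosine kinase receptor that passes their signal to the PI3K and MAP kinase cascades, whereas IGF2R has no kinase and carries IGF2 to the lysosome. The classical binding proteins hold IGFs outside the cell and are cleaved by proteases, and IGFBP7 is a relative that binds IGFs weakly. In fat, IGF1 is made by adipocytes and stromal cells under the control of growth hormone and supports the differentiation of preadipocytes.

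The depth recovered from the table was between 1391831 and 5926372 mapped reads (median 4009999), and the shallowest library was KD 24 h replicate 6. The highest total, that of NC 72 h replicate 6, may be overstated, since few of its recovered low counts were odd numbers. Its read numbers, and read sums of NC 72 h, may then be overstated too. NC 72 h replicates 2 and 3 agreed within sampling noise and entered as their mean, as 1 sample (n = 5 for NC 72 h). The RefSeq entry of Ctcflos (NR_040321) was at 0.189 ± 0.244 RPKM (SD, n = 6) in KD 24 h against 0.741 ± 0.515 (n = 6) in NC 24 h, and at 0.231 ± 0.22 (n = 6) in KD 72 h against 1.23 ± 0.408 (n = 5) in NC 72 h. The two-sided exact permutation p was 0.045 at 24 h and 0.0022 at 72 h. Its reads summed to between 12 and 89 per group, and single libraries of KD and NC overlapped at 24 h. The study used gapmers against single isoforms of Ctcflos. This entry was not matched to the isoform that the gapmer pairs with, so knockdown of that isoform was not measured here. Deviations from the group means divided the samples into clusters of 15 and 8. The smaller cluster held 2 samples of every group (KD 24 h replicates 3 and 4, NC 24 h replicates 5 and 6, KD 72 h replicates 5 and 6, NC 72 h replicates 4 and 5). The labels name no batch that would match this split. In bulk RNA, fewer cells of a type and less RNA per cell cannot be told apart.

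At 24 h, 4 of the 8 tested members were lower in KD and 0 were higher by limma, beside 11.6% lower and 11.1% higher among all 52004 entries tested. Igf1, Igf1r, Igfbp3 and Igfbp5 fell. At 72 h, 3 of 8 were lower in KD and 0 were higher, beside 12% lower and 10.3% higher among all 54446 entries. Igf1 and Igf1r were lower again, and Igfbp7 was the other member that passed. At an unadjusted p under 0.05, 0 members were higher and 5 lower at each time, and limma voom on the recovered reads called 0 higher at either time. Without scaling, the share of higher entries among all calls at 72 h went from 46.2% to 80.9%, and none of the 8 members changed direction there. Between 24 h and 72 h in the control, 3 of 8 rose (Igf1, Igfbp3 and Igfbp7) and 1 fell (Igfbp5), beside 4.63% higher and 4.49% lower among all 52835 entries. The KD effect itself differed between the time points for 1 of 8, Igfbp5, which was higher in this contrast. Of all 59412 entries in it, 0.126% were called higher and 0.0741% lower. The median log2 fold change over the 8 members was -0.60 at 24 h, beside -0.008 over all entries tested. It was -0.38 at 72 h, beside 0.008, and 0.26 over time in the control, beside 0.006. For the difference of KD effects it was -0.10, beside 0.026. The comparisons share groups, so that NC 24 h enters both the KD effect at 24 h and the change over time. Values below are RPKM after scaling of the libraries, unless reads are named.

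**Figure D1:**
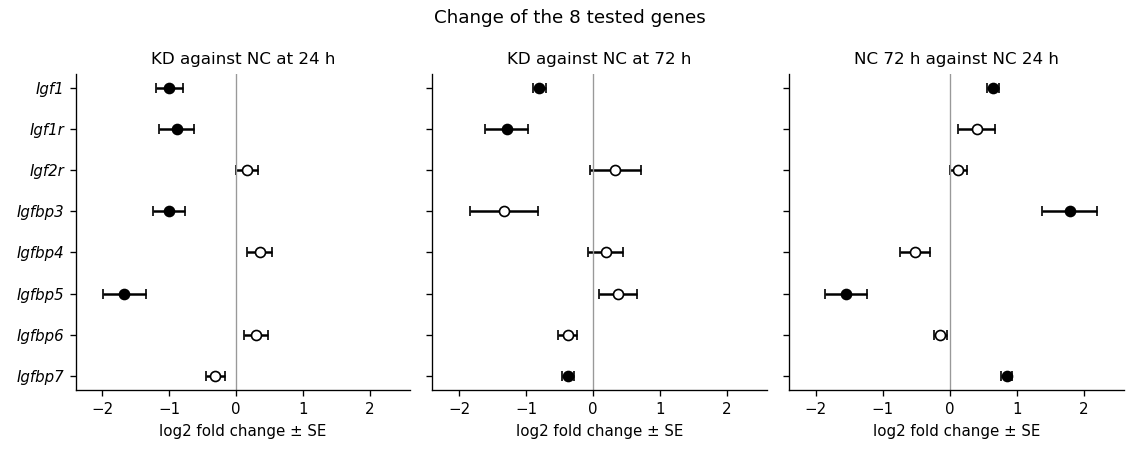
The log2 fold change of each of the 8 tested members in the 3 comparisons, with bars of 1 standard error and filled points for members with an adjusted p under 0.05. Igf1 and Igf1r lie left of 0 in both KD comparisons, whereas Igfbp5 lies at -1.67 at 24 h and at 0.37 at 72 h.

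The sequences just before the annotated start of the 4 members called lower at 24 h are shown because these genes moved together at that time. Each is the 150 bases before the start, 5′ to 3′ on the strand of the gene, from RefSeq on GRCm38.p6. Capitals mark 5 motifs. The TATA-like runs searched were TATAAA and its variants with other letters, namely TATATA and, with a different start, TTTAAA. The CCAAT box is spelled by its name, and the GC box was searched as GGGCGG. Both strands were searched, and none of the marked runs overlaps another.
Igf1: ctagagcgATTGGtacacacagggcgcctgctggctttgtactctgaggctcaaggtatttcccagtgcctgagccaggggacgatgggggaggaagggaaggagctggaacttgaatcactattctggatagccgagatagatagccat
Igf1r: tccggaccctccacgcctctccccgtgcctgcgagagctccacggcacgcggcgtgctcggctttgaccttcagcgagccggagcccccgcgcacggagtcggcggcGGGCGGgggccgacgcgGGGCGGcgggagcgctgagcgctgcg
Igfbp3: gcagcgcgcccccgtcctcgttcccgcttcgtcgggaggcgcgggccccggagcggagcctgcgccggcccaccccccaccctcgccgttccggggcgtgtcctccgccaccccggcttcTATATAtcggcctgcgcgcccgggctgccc
Igfbp5: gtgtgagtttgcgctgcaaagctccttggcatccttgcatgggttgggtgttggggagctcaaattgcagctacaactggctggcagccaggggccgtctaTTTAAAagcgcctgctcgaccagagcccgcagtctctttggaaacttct

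The stretches lie at chr10:87860961-87861110 on the plus strand for Igf1, chr7:67952107-67952256 on the plus strand for Igf1r, chr11:7213924-7214073 on the minus strand for Igfbp3 and chr1:72874866-72875015 on the minus strand for Igfbp5. None of the searched motifs was found in more than 1 of these stretches, and likeness between the stretches was not measured. Igfbp3 held TATATA from 30 to 25 bases before the start, a run found in 3.0% of the 32851 promoters of the table over the same window. Igfbp5 held TTTAAA from 49 to 44 bases before the start, found in 6.8% of them. Igf1r held GGGCGG at 2 places, found in 28.6%, and neither TATA-like run. Igf1 held CCAAT on the opposite strand 142 to 138 bases before the start, found in 24.5%. G and C made up 78.7% of the stretches of Igf1r and Igfbp3, 54.0% of that of Igf1 and 55.3% of that of Igfbp5, beside a median of 54.0% over all promoters. All 10 members had at least 1 entry among these promoters, and TATAAA was found for Igfbp4 and Igfbp6 and in 7.6% of all.

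Igf1, the ligand for which IGF1R is named, was lower in KD at both times. In KD 24 h its level ran from 21.4 over a median of 48.7 to 57.7 RPKM, and in NC 24 h from 72.1 over 91.5 to 100.3. Every KD library was below every NC library, and the lowest was the shallow KD 24 h replicate 6. KD against NC gave a log2 fold change of -1 ± 0.20 (SE; adjusted p = 0.0041), from a mean of 88.1 ± 11.2 (SD, n = 6) in NC to 45.5 ± 13.5 (n = 6) in KD. Without KD 24 h replicate 6 the call held at -0.80, whereas within the smaller cluster, with 2 samples a group, the difference was -0.38.

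At 72 h the 6 KD values of Igf1 ran from 65.8 over a median of 75.4 to 93.6 RPKM, and the 5 NC samples were at 132, 137, 137, 136 and 135. The groups were far apart and NC varied by only 2.40 (SD) around 135. This was a log2 fold change of -0.80 ± 0.10 (adjusted p = 1.1e-04). From 24 h to 72 h in the control, Igf1 rose (log2 change 0.64 ± 0.09, adjusted p = 5.2e-04), with no overlap. Its level was thus lowest in KD 24 h and highest in NC 72 h. KD 72 h (77.9 ± 10.8) and NC 24 h (88.1 ± 11.2), the neighbours in the middle of the order, overlapped. The KD effect on Igf1 at 72 h minus that at 24 h was 0.20 ± 0.24 (adjusted p = 0.79).

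**Figure D2:**
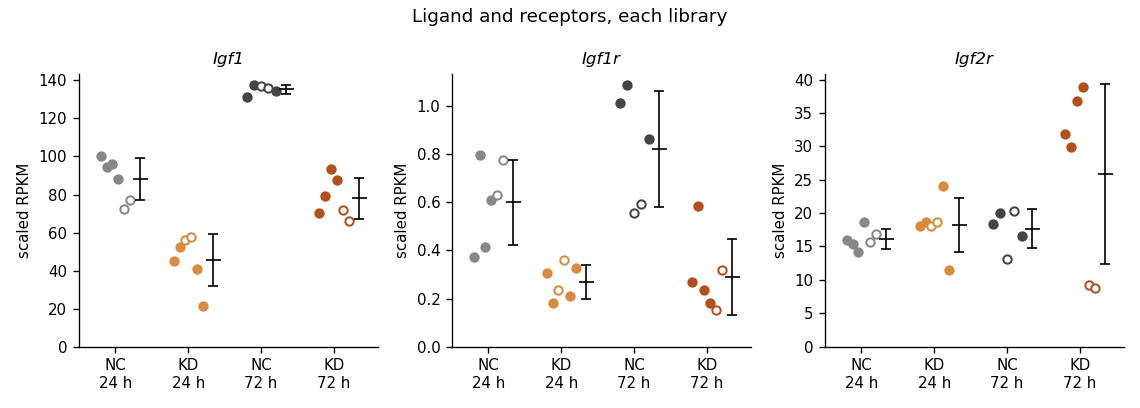
Scaled RPKM of Igf1, Igf1r and Igf2r in each sample of the 4 groups, on linear axes from 0, with the mean and SD beside the points. Open points are samples of the smaller cluster, and in KD 72 h both lie at 9.27 or lower for Igf2r while the other 4 lie at 29.9 or higher.

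The size of the Igf1 change depended on the transcript entry. The table holds 17 entries for Igf1. The 4 long RefSeq entries (NM_001111276, used above, NM_001111274, NM_001111275 and NM_010512, 6987 to 7121 bases) changed by -1 at 24 h and -0.80 at 72 h. The other entries, of 510 to 3720 bases, changed by -0.55 to -0.46 at 24 h and by -0.32 to -0.19 at 72 h. The most abundant entry from another database, ENSMUST00000122100 (651 bases), was at -0.47 at 24 h (adjusted p = 0.032), and at 72 h its -0.19 missed the threshold (adjusted p = 0.14).

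The long entries carry a long last exon, and the Ensembl entry ENSMUST00000105300 (1673 bases) ends early in that exon. Reads of NM_010512 (7121 bases) that were not in the shorter entry were therefore taken as distal, and those in the shorter entry as proximal. This comparison was added after the difference between the entries had been seen. The distal reads numbered 1.96, 2.06, 2.71, 2.72, 2.23 and 0.72 times the proximal reads in KD 24 h replicates 1 to 6, and 2.71 to 3.70 times in NC 24 h. At 72 h the ratio was 1.49 to 2.01 in KD and 2.62 to 3.20 in NC. KD lay below NC in nearly every sample at 24 h, where the groups met at 2.71 to 2.72, and in every sample at 72 h. The mean ratio was 2.07 ± 0.73 (SD, n = 6) in KD 24 h and 3.19 ± 0.38 (n = 6) in NC 24 h, a log2 difference of -0.73 (two-sided exact permutation p = 0.0065; adjusted over 3 comparisons, 0.0098). It was 1.75 ± 0.22 (n = 6) in KD 72 h and 2.92 ± 0.23 (n = 5) in NC 72 h, a log2 difference of -0.74 (exact permutation p = 0.0022; adjusted 0.0066). Over time in the control the log2 ratio differed by -0.12 (exact permutation p = 0.22). Without KD 24 h replicate 6 the log2 difference at 24 h was -0.45 (exact permutation p = 0.0087).

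Both parts were lower in KD. Distal reads differed by -1.26 at 24 h and -1.04 at 72 h on the log2 scale (exact permutation p = 0.0022 at each time). Proximal reads differed by -0.52 (exact permutation p = 0.0043) and -0.29 (exact permutation p = 0.0065). In the control over time both parts were higher at 72 h, by 0.72 for the proximal and 0.60 for the distal part (exact permutation p = 0.0022 for each). Long transcripts also give proximal reads, so the ratio is not the ratio of 2 transcript forms. The distal drop is the larger, and the values of Igf1 above rest mostly on it.

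**Figure D3:**
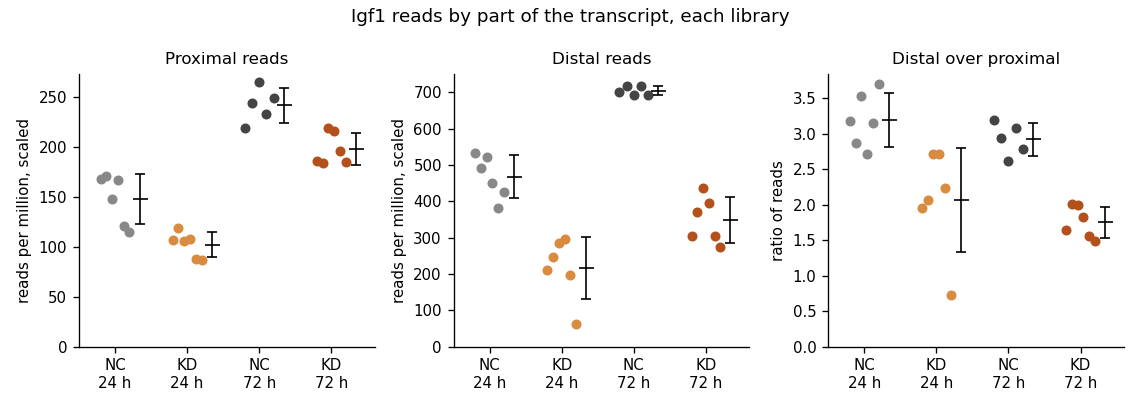
Igf1 reads per 1000000 mapped reads, scaled, from the proximal part (left) and the distal part (middle), and their ratio (right), in each sample with the group mean and SD. The mean ratio is 2.07 in KD 24 h, 3.19 in NC 24 h, 1.75 in KD 72 h and 2.92 in NC 72 h.

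Igf2, the fetal growth factor of the pair, was close to the limit of detection. Its RefSeq entry NM_001122737 received 0 to 8 reads per sample and 16 to 33 per group. Deposited RPKM did not pass in any comparison (two-sided exact permutation p = 0.73 for KD against NC at 24 h, 0.082 at 72 h and 0.88 for NC over time, unadjusted). With so few reads these p-values do not show that its level was alike in the groups. Without KD 72 h replicate 3 or without NC 72 h replicate 4 the unadjusted exact permutation p at 72 h was 0.048.

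Igf1r, the signalling receptor, was low per length and rested on few reads. The 24 h values ran from 0.179 over a median of 0.271 to 0.361 RPKM in KD and from 0.375 over 0.621 to 0.796 in NC. These were 6 to 21 reads per library in KD and 13 to 50 in NC. KD lay below NC throughout, and the log2 fold change was -0.89 ± 0.26 (adjusted p = 0.024). At 72 h KD ran from 0.15 over 0.251 to 0.584 RPKM, and the NC samples were at 1.02, 1.09, 0.556, 0.594 and 0.863. KD 72 h replicate 2 alone reached into the range of NC. KD differed from NC by -1.29 ± 0.32 on the log2 scale (adjusted p = 0.010), and the change over time in the control was 0.40 ± 0.27 (adjusted p = 0.43). The call at 24 h was lost without any 1 of 6 libraries (KD replicates 2 and 5, NC replicates 2, 4, 5 and 6), with adjusted p from 0.051 to 0.063, while the log2 fold change stayed between -0.99 and -0.81. At 72 h it held without each library in turn. With no filter on low values, the call was lost at both times (-0.90, adjusted p = 0.19, and -1.28, adjusted p = 0.093).

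Igf2r, the clearance receptor for IGF2, did not pass in any of the 4 contrasts by its main entry. At 24 h it ran from 11.4 over a median of 18.4 to 24.1 RPKM in KD and from 14.2 over 15.8 to 18.7 in NC. At 72 h the NC samples were at 18.3, 19.9, 13.1, 20.3 and 16.5, and the 6 KD samples at 31.9, 29.9, 36.7, 38.9, 9.27 and 8.80. KD 72 h thus fell into 4 samples above every NC sample and 2 below every NC sample. The 2 low samples are those of the smaller cluster. Over all samples the log2 fold change at 72 h was 0.33 ± 0.38 (adjusted p = 0.57). A shorter, less abundant entry of Igf2r, AK088699, was called higher in KD at 72 h (1.1, adjusted p = 0.021). Within the larger cluster KD averaged 34.4 (n = 4) against 18.3 (n = 3) in NC, and within the smaller cluster 9.04 (n = 2) against 16.7 (n = 2). The clusters were drawn from 6244 genes of these same samples, so these means are a description, and so are counts of calls within the clusters.

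The binding proteins differed widely in level and in how they moved. Igfbp7 was the most abundant member per length in every group and Igfbp2 was at or near 0. The cDNA was started by oligo-dT primers, and how evenly the reads cover long and short transcripts was not measured. The order of genes is therefore that of RPKM only.

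Igfbp3, the main carrier of IGFs in blood, was at 1.60 over a median of 2.14 to 2.69 RPKM in KD 24 h and at 2.27 over 4.72 to 6.07 in NC 24 h. All KD samples but replicates 1 and 3 were below the lowest NC sample, NC 24 h replicate 6. The log2 fold change was -1.01 ± 0.24 (adjusted p = 0.010), and in the fit over all 4 groups together it was -1.02 with an adjusted p of 0.066. To 72 h in the control it rose (log2 change 1.79 ± 0.41, adjusted p = 0.012), with no overlap. The NC 72 h samples, at 25.8, 33.4, 6.2, 7.18 and 20.01, were themselves spread over a wide range, and the low pair is that of the smaller cluster. KD 72 h ran from 2.84 over 4.82 to 14.3, and the log2 fold change of -1.33 ± 0.51 missed the threshold (adjusted p = 0.076). It passed in the fit over all 4 groups (adjusted p = 0.031), with limma voom on recovered reads (0.045) and with all 24 libraries as separate samples (0.035), and also without any 1 of 3 libraries (KD 72 h replicates 1 and 2, NC 72 h replicate 4), and adjusted p without each library in turn lay between 0.036 and 0.17.

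Igfbp5, a binding protein that attaches to extracellular matrix, was the member with the largest KD effect at 24 h. KD ran from 1.27 over a median of 2.10 to 3.77 RPKM and NC from 4.14 over 9.15 to 11.2. The groups did not overlap, and the 2 lowest NC samples were those of the smaller cluster, at 4.21 and 4.14. The log2 fold change was -1.67 ± 0.32 (adjusted p = 0.0030). In the control the log2 change to 72 h was -1.55 ± 0.32 (adjusted p = 0.0061), to 2.02, 1.62, 2.46, 2.47 and 4.43. KD 72 h, from 2.16 over 3.16 to 5.21, overlapped with NC 72 h at a log2 fold change of 0.37 ± 0.28 (adjusted p = 0.37). NC 24 h was therefore the high group, at 8.01 ± 3.07 (SD, n = 6), and the other 3 averaged 2.39 to 3.31 and overlapped each other. The difference of the KD effects was 2.05 ± 0.44 (adjusted p = 0.0499). Left-out libraries moved the difference between 1.9 and 2.26, and the call was lost for 18 of the 24. It held without KD 24 h replicates 1 or 6, NC 24 h replicates 5 or 6, or NC 72 h replicates 2 or 6, and adjusted p ranged from 0.025 to 0.11.

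Igfbp7 was at 220 over a median of 259 to 418 RPKM in KD 24 h and at 318 over 330 to 387 in NC 24 h. The KD sample at 418 was replicate 6, and the other 5 were below every NC sample. The log2 fold change was -0.31 ± 0.14 (adjusted p = 0.11), and without that replicate it was -0.44 (adjusted p = 0.0017). Over time in the control Igfbp7 rose (log2 change 0.85 ± 0.08, adjusted p = 2.3e-05), to 613, 688, 594, 518 and 643. At 72 h KD ran from 428 over 456 to 517, below every NC sample by the scaled values. That difference was -0.38 ± 0.09 on the log2 scale (adjusted p = 0.0077), and on the deposited scale, without scaling, it was -0.13 (adjusted p = 0.36). That scale moved the median of all entries at 72 h from 0.01 to 0.25.

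Igfbp4 and Igfbp6 passed in no contrast over all samples. Igfbp4, which inhibits IGF action until it is cleaved by the protease PAPP-A, was at 27.2 ± 8.32 RPKM (SD, n = 6) in KD 24 h, 20.8 ± 2.58 (n = 6) in NC 24 h, 16.9 ± 5.11 (n = 6) in KD 72 h and 15.3 ± 5.86 (n = 5) in NC 72 h. Its log2 fold changes were 0.35 ± 0.19 (adjusted p = 0.19) and 0.19 ± 0.26 (adjusted p = 0.64) for KD, and -0.52 ± 0.22 (adjusted p = 0.17) over time. In 72 h samples its level followed the cluster: the smaller cluster averaged 23.3 in KD and 20.5 in NC, and the larger cluster 13.7 and 11.8. Igfbp6, which prefers IGF2, was at 58.1 ± 17.1, 46.2 ± 4.90, 32.4 ± 6.09 and 41.7 ± 4.30 in the same order of groups. Its log2 fold change was 0.29 ± 0.18 (adjusted p = 0.25) at 24 h and -0.38 ± 0.14 (adjusted p = 0.066) at 72 h, where it passed without KD 72 h replicate 3 (-0.44, adjusted p = 0.042). The difference of these KD effects, -0.66 ± 0.24, missed the threshold as well (adjusted p = 0.26).

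Igfbp2 was listed at 0 in all 6 KD 24 h samples and received 4 reads over the 6 NC 24 h samples. At 72 h it received 10 reads over KD and 22 over NC. The deposited RPKM of NC 72 h and NC 24 h differed by 0.623 (two-sided exact permutation p = 0.022, unadjusted), and this p rose to between 0.063 and 0.067 without any 1 of NC 24 h replicates 1, 3, 4 and 6 and NC 72 h replicate 5. KD against NC gave exact permutation p of 0.45 at 24 h and 0.20 at 72 h.

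**Figure D4:**
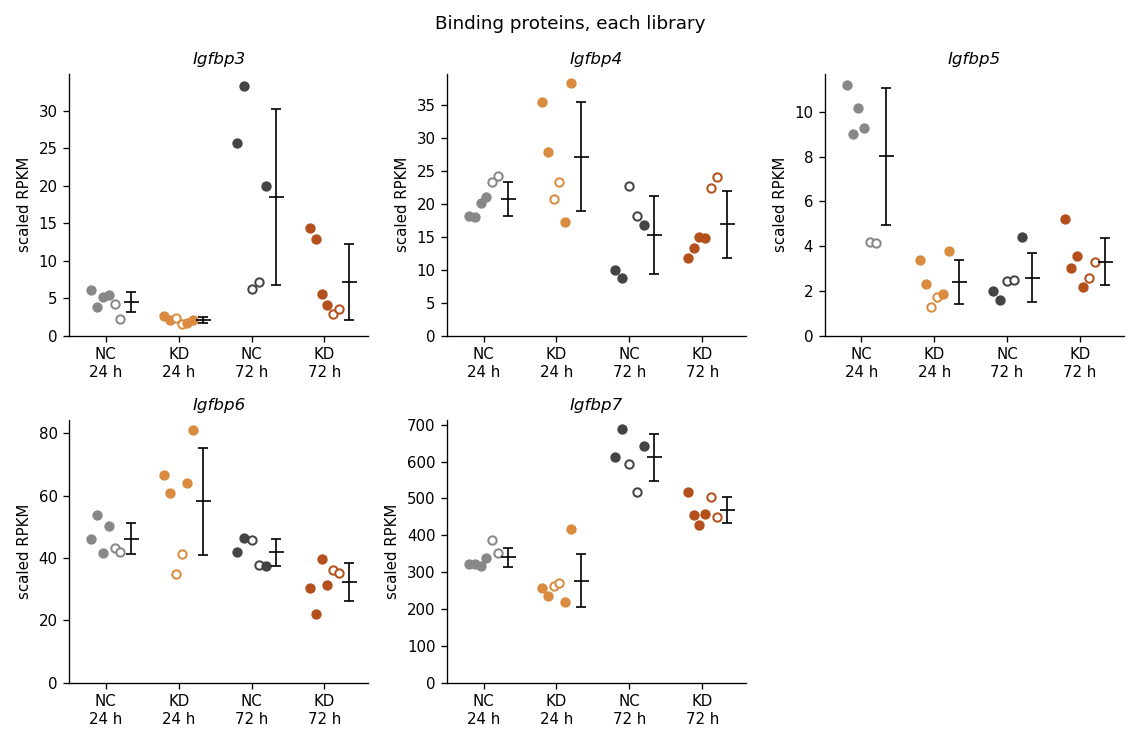
Scaled RPKM of the 5 tested binding proteins in each sample, on linear axes from 0, with the mean and SD beside the points. Open points are samples of the smaller cluster. Igfbp5 is high in NC 24 h, where it averages 8.01, and Igfbp7 is higher in NC 72 h than in the other groups.

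Among the other genes of the pathway, calls were scattered in both directions. Over all entries tested, 11.1% were called higher and 11.6% lower in KD at 24 h, and 10.3% and 12% at 72 h. Over time in the control these shares were 4.63% and 4.49%. The counts in the short lists below stand beside these shares, and no list was tested as a set. The list of receptors and ligands outside the members was mostly below the filter. Of its 8 genes, 1, the insulin receptor Insr, could be tested. Its log2 fold change was -0.57 ± 0.21 at 24 h (adjusted p = 0.065) and -0.34 ± 0.24 at 72 h (adjusted p = 0.35).

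Of the proteases that cleave binding proteins and their inhibitors, 3 of 12 tested were higher and 1 lower in KD at 24 h (median log2 fold change 0.09), and 2 of 14 were higher and 3 lower at 72 h (median -0.12). Adam12, a metalloprotease that cleaves IGFBP3 and IGFBP5, fell from 11.7 to 3.85 RPKM at 24 h (log2 fold change -1.68 ± 0.26, adjusted p = 7.9e-04) and from 10 to 3.13 at 72 h (-1.69 ± 0.19, adjusted p = 4.3e-05). The secreted serine protease Htra1 fell at 72 h (-0.99 ± 0.16, adjusted p = 8.4e-04). Plat, the tissue plasminogen activator, rose at both times (0.58 ± 0.17, adjusted p = 0.027, and 0.78 ± 0.14, adjusted p = 0.0013). In the control, 4 of 13 rose over time, among them the inhibitor Timp1 (1.12 ± 0.18, adjusted p = 0.0013), Htra1 (0.89 ± 0.19, adjusted p = 0.0089) and Mmp14 (0.46 ± 0.10, adjusted p = 0.010).

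Genes that act on the Igf mRNAs included 2 of 7 tested that were lower at 24 h and 2 of 6 at 72 h, with 0 higher at either time, also at an unadjusted p under 0.05 (medians -0.68 and -0.41). The 2 genes were the same at both times, namely Ghr, the growth hormone receptor through which Igf1 is induced, and Igf2bp2, an mRNA-binding protein of Igf2. Ghr fell from 38.4 to 20.6 RPKM at 24 h (-1.07 ± 0.30, adjusted p = 0.020) and from 49.9 to 16.5 at 72 h (-1.62 ± 0.17, adjusted p = 2.5e-05), and it rose over time in the control (0.38 ± 0.11, adjusted p = 0.039). Igf2bp2 fell at both times (-0.95 ± 0.22, adjusted p = 0.0070, and -0.87 ± 0.20, adjusted p = 0.0077).

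Of the receptor adaptors, 1 of 13 tested was higher and 1 lower at 24 h (median -0.23), and 2 of 15 were lower at 72 h (median 0.04). Grb10, an adaptor that restrains the insulin and IGF1 receptors, fell at both times (-0.84 ± 0.16 and -0.66 ± 0.13, adjusted p = 0.0026 for each). Grb2, which couples receptors to Ras, rose at 24 h (0.64 ± 0.18, adjusted p = 0.022). Socs2, a feedback inhibitor of growth hormone signalling, fell at 72 h (-0.83 ± 0.20, adjusted p = 0.0088) and was the 1 adaptor of 12 that rose over time in the control (0.84 ± 0.20, adjusted p = 0.013).

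In the kinase cascades, 2 of 18 tested were higher and 2 lower at 24 h (median -0.15), and 2 of 19 were higher and 1 lower at 72 h (median 0.05). Akt1, a central kinase of the cascade, rose at both times (0.58 ± 0.17, adjusted p = 0.022, and 0.43 ± 0.12, adjusted p = 0.021). Among subunits of PI3 kinase, Pik3r1 fell at 24 h (-0.58 ± 0.17, adjusted p = 0.021), Pik3cb fell at 72 h (-1.06 ± 0.34, adjusted p = 0.036) and Pik3r3 rose at 72 h (1.85 ± 0.37, adjusted p = 0.0027). Tsc1, an inhibitor upstream of mTOR, fell at 24 h (-0.74 ± 0.25, adjusted p = 0.047). Over time in the control Pik3r3 fell (-1.45 ± 0.41, adjusted p = 0.039), as the 1 call among 19.

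The CCN family, matrix proteins that share a module with the binding proteins, had 2 of 4 tested higher at 24 h (median 0.29) and 2 of 5 lower at 72 h (median -0.02). Ccn2 (1.26 ± 0.42, adjusted p = 0.042) and Ccn1 (0.64 ± 0.19, adjusted p = 0.024) rose at 24 h. Ccn3 (-1.10 ± 0.33, adjusted p = 0.027) and Ccn5 (-0.39 ± 0.13, adjusted p = 0.045) fell at 72 h. Over time in the control 3 of 5 rose, namely Ccn3 (1.85 ± 0.35, adjusted p = 0.0035), Ccn4 (1.03 ± 0.30, adjusted p = 0.047) and Ccn5 (0.81 ± 0.12, adjusted p = 7.1e-04).

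**Figure D5:**
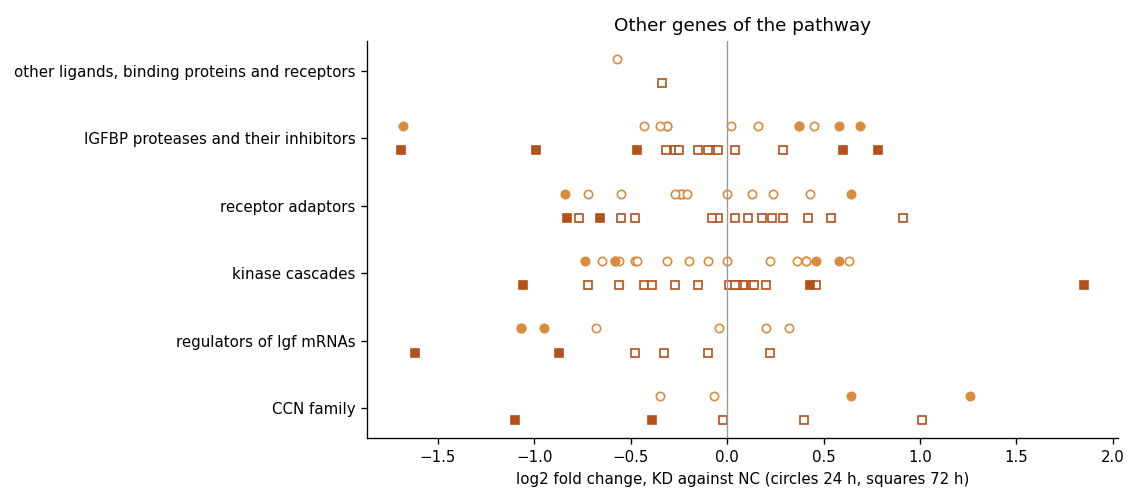
The log2 fold change of KD against NC for each tested gene of the 6 pathway lists, at 24 h (circles) and 72 h (squares), filled where the adjusted p was under 0.05. Over both times together, calls lie on both sides of 0 for the proteases, adaptors, kinases and CCN family. Those of the regulators of Igf mRNAs lie to the left, and the other ligands, binding proteins and receptors have none.

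The genes whose 4 group means were nearest to those of Igf1, out of 12711 symbols, were Polr3g, 9330133O14Rik and AK084525, at root mean square distances of 0.054, 0.058 and 0.059 on the log2 scale. For Igf1r they were Clybl, AK040309 and Gys2, at 0.035, 0.037 and 0.047.

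The libraries carried adipocyte markers at high levels, and these moved with the groups too. Over all entries tested, 11.1% were called higher and 11.6% lower in KD at 24 h, and 10.3% and 12% at 72 h. Of 8 brite and adipocyte markers, 5 were lower in KD at 24 h and 6 at 72 h. Their summed level was 24400 to 33600 RPKM in KD 72 h and 35500 to 47100 in NC 72 h. Most of this sum was Fabp4, at a mean of 25200 in KD 72 h and 37700 in NC 72 h. Of 10 stromal progenitor markers, 0 of 8 tested changed at 24 h by limma (0 also at an unadjusted p under 0.05), and 3 of 7 tested were higher in KD at 72 h, where the sums were 1030 to 1370 in KD and 629 to 1820 in NC. Macrophage markers (10 genes) summed to 2.85 to 36.9 over all samples. Of the 3 that could be tested, Csf1r, a macrophage receptor, was higher in KD at 24 h (1.22, adjusted p = 0.0061) and at 72 h (1.23, adjusted p = 0.0031), and Lyz2, a lysozyme, was lower at 72 h (-3.68, adjusted p = 0.00066). Endothelial markers (7 genes) summed to 0.193 to 3.03. Smooth muscle and pericyte markers (7 genes) summed to 184 to 866 in KD 24 h and 511 to 1490 in NC 24 h, and to 272 to 375 in KD 72 h and 361 to 1090 in NC 72 h. Of these, Tagln, a smooth muscle protein, was lower in KD at 72 h (-0.76, adjusted p = 0.031). Mesothelial and epithelial markers (8 genes) summed to 24.9 to 77.6 in KD 24 h and 19.4 to 26.3 in NC 24 h. At 72 h they summed to 97.3 to 164 in KD and 20.1 to 40.8 in NC. Most of the 72 h sum was Krt19, at a mean of 136 in KD 72 h and 23 in NC 72 h, and Upk3b was at 0 in every sample. Krt19 was called higher in KD at 24 h (1.06, adjusted p = 0.0092) and at 72 h (2.54, adjusted p = 5.7e-07) by limma. The part of these cell types in the changes of the IGF genes was not tested.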

How the data were processed

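RNA of 24 libraries was sequenced as pools of barcoded samples (BRB-seq), in which barcoded oligo-dT primers start the cDNA and tagmented fragments are sequenced. The authors aligned the tags with the Genomatix suite and deposited RPKM, reads per kilobase of transcript per 1000000 mapped reads, for 168326 transcript entries; the genome build and the handling of strand were not given in the sources used here. Entries of a gene overlap and share reads. In the deposited table, 0 columns were left unused.

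RPKM rises in steps of 1 read, from which totals and reads were recovered (95.1% to 95.7% of low values per library lay within 0.1 of a whole read). In NC 72 h replicate 6, 21.3% of reads from 1 to 20 were odd, fewer than in any other library, so its total and read numbers may be overstated.

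Entries were kept that reached 10 reads, taken at the median depth, in as many samples as the smaller group had, and 15 in all. RPKM were scaled by a trimmed mean of log ratios (30% and 5% trimmed; factors 0.92 to 1.23). Linear models were fitted to log2(RPKM + 0.1) over all entries with limma 3.58.1 (R 4.3.3), with an intensity trend and Benjamini-Hochberg adjustment, two-sided, and adjusted p under 0.05 made a call. Fold changes on this scale understate the change of low genes. Each KD against NC and NC over time used its own 2 groups, and the difference of KD effects used all 4. Members below the filter were compared by exact permutation tests of deposited RPKM. The script was tested on simulated data. Promoter sequences are those of RefSeq on GRCm38.p6.

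The members, the pathway and marker lists and the rule for named genes were chosen with earlier results of these data known. The rule named all members, at most 3 called genes per list and comparison by size of change, and the 3 symbols nearest to Igf1 and Igf1r. A gene that this rule named among the proteases and inhibitors is not reported here. Alternatives covered the scaling, pseudocount, filter, replicate block, entry, sample clusters and each left-out library. The correlation clusters, the Igf1 parts and the alternatives to the exact tests were added after the data were seen.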

Additional observations from a re-analysis of the deposited data

Results flagged for a closer look

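Igfbp7 in KD 24 h replicate 6, at 418 scaled RPKM, stood apart from its group. Its gap to the nearest sample, at 270, was 0.75 of the range of the group, above the limit for 6 samples. Chance alone passes this limit in about 1 group in 20, and 1 of the 39 groups tested passed. The library is the shallowest of the series.

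The KD effect on Igfbp5 at 72 h minus that at 24 h was 2.05 on the log2 scale, by the interaction term of limma (adjusted p = 0.0499).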

How the results depend on the processing

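Of the changes in the 8 tested members, those of Igf1 and Igfbp7 over time in the control kept their direction and call in every alternative. The lower Igf1 in KD at 72 h lost its call with the entry of another database (-0.19). Depth limits Igf2, Igfbp2 and Igf1r most.

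For KD against NC at 24 h, 4 members were called. The count was 0 on the larger side of the first principal component of the deviations from group means (12 samples; the other side has 11 and includes the shallow KD 24 h replicate 6) and 1 in the smaller correlation cluster, where 0.956% and 2.95% of all entries were called, against 22.7% over all samples. It was between 3 and 5 without each library in turn. At 72 h, 3 were called, against 5 with all 24 libraries as separate samples, 1 and 5 on the larger and smaller side of the component, and 5 and 1 in the larger and smaller cluster. The share of all entries called was 5.43% and 13.4% on the sides and 24.6% and 10.3% in the clusters, against 22.3%. Over time in the control, 4 were called, against 2 on the larger side and 2 in the smaller cluster, which hold the same NC samples (3.23% of all entries in each, against 9.12%). For the difference of KD effects, 1 was called, against 0 without the filter, on the larger side, in the smaller cluster, and without both of NC 72 h replicates 2 and 3. Without each library it was 0 to 1. Fewer samples enter each side and cluster, and the cause of the other shifts was not tested.

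Every direction that turned was that of a change that had not passed. On the smaller side of the component, KD against NC at 24 h was -0.15 for Igf2r and 0.02 for Igfbp7, and on the larger side Igfbp4 was at -0.11 at 24 h and -0.17 at 72 h. In the smaller cluster, Igfbp4 was at -0.10 and Igfbp6 at -0.16 at 24 h, and Igf2r at -0.85 at 72 h. Igf1r over time was -0.24 on the larger side and in the smaller cluster, which hold the same NC samples. The difference of KD effects turned on the larger side for Igf1 (-0.29), Igf1r (0.46), Igf2r (-0.20), Igfbp3 (0.30) and Igfbp7 (0.31), in the smaller cluster for Igf1 (-0.61), Igf2r (-1.03), Igfbp4 (0.30) and Igfbp7 (0.25), and on the deposited scale for Igfbp4 (0.03) and Igfbp7 (0.13). Without each library it ran from -0.28 to 0.02 for Igfbp4 and from -0.12 to 0.07 for Igfbp7. The difference in deposited RPKM of Igf2 ran from -0.013 to 0.072 for KD against NC at 24 h and from -0.069 to 0.035 over time.

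Some changes that had not passed did so within a side or cluster. On the smaller side these included Igf2r at 72 h (0.95, adjusted p = 0.0088), Igfbp4 at 24 h (0.93, adjusted p = 0.0049), Igfbp6 at 24 h (0.63, adjusted p = 0.022) and the difference of KD effects on Igfbp6 (-1.05, adjusted p = 0.023). In the larger cluster they included Igf2r at 72 h (0.91, adjusted p = 0.00063) and Igfbp6 at 24 h (0.50, adjusted p = 0.024). The larger cluster and the smaller side both leave out the 2 KD 72 h samples in which Igf2r was low (9.27 and 8.8). Sides and clusters were drawn from these same samples, so the p-values within them are a description and add no support. Igfbp4 over time passed in both (-0.76, adjusted p = 0.04).

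Without the filter, 7.05% of all entries were called at 24 h, 7.91% at 72 h and 2.91% over time. For the difference of KD effects the share was 0.0889% without the filter and 1.30% on the deposited scale, against 0.200% in the main fit.

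Groups share replicate numbers, but same-numbered samples did not deviate together (mean correlation -0.05 at 24 h, 0.01 at 72 h and 0.02 over time), so the numbers were not taken as pairs. With the replicate block, 0 members were called for the difference of KD effects (Igfbp5 at 2.07, adjusted p = 0.098). With the block, Igf1r at 24 h (adjusted p = 0.065), Igfbp7 at 72 h (0.063) and Igfbp5 over time (0.051) lost their calls, and Igfbp3 at 72 h passed (0.012).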
